A study of Mus musculus with 2 samples.

Results

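Long noncoding RNAs that reached very different levels in adipose tissue macrophages (ATMs) are described here. The 5 genes named were *Malat1*, *Neat1*, *Gm10076*, *Gas5* and *Snhg6*. They were chosen by their measured UMIs in these libraries. The choice used the contrast between diets and the dependence on UMIs per cell and on the mitochondrial share. The values below are therefore a description, and no test was made of them. 4 of the 5, among 31053 genes in all, were measured, and *Gas5*, a snoRNA host gene on chromosome 1 (161034422 to 161038539, GRCm38), was not analysed here.

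ATMs were sorted from digested epididymal fat of male C57/BL6 mice (C57BL/6JOlaHsd, aged 8 to 12 weeks, in the study's methods) as CD45+Lin-Ly6Clow/-F4/80+ cells. One library came from mice kept on a control diet (CD) and one from mice given a high fat diet overnight (HFD), each from 3 mice pooled before 10x Genomics 3′ sequencing. The labels name no transgene or other treatment, and mice of both groups shared strain, sex and tissue. With 1 library per diet there was no replicate, so diet cannot be told apart from library, and differences between mice could not be seen. A difference below is one between 2 libraries, with 95% intervals that cover counting error only.

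Long noncoding RNAs are transcripts that do not code for protein, and many stay in the nucleus. *Malat1* is an abundant nuclear RNA that gathers in speckles, where splicing factors are stored. *Neat1* is the scaffold on which paraspeckles form. snoRNA host genes such as *Snhg6* and *Gas5* carry small nucleolar RNAs in their introns, and their spliced exons are known to be short-lived. Chemistry that primes on poly(A), as in these libraries, counts such RNAs only where they hold a stretch of A, at the 3′ end or within.

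The libraries held 15003119 UMIs in 4459 barcodes (CD) and 9164686 UMIs in 3163 barcodes (HFD), and 14 barcodes were in both. Cells with at least 200 genes numbered 4430 and 3147. Of these, 2387 CD cells and 2027 HFD cells had at most 10% of their UMIs from the 13 mitochondrial mt- genes, with medians of 4538 and 2803 UMIs per cell. A further 924 and 797 cells had 10 to 20% mt- UMIs, with medians of 1283 and 777 UMIs, and 1119 and 323 cells had over 20%. All 7 macrophage markers (*Adgre1*, *Csf1r*, *Cd68*, *Mrc1*, *C1qa*, *Fcgr1*, *Lyz2*) were present in both libraries, at a summed level of 18641 CPM (UMIs per 1000000 UMIs) and 21670.5 CPM. Of the other cell types, hemoglobin genes were at 592 and 694 CPM, stromal genes at 68.5 and 4.15 CPM, cycling genes at 47.3 and 20.9 CPM, and adipocyte genes at 42.2 and 25.5 CPM. Lists for neutrophils, B cells, T or NK cells, mesothelium, endothelium and peritoneal macrophages were each at 12.4 CPM or less, with *Ms4a1* and *Cd3e* at 0 in both libraries and *S100a9*, *Retnlg*, *Nkg7*, *Msln* and *Upk3b* at 0 in the HFD library.

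The genes sit at 3 places in the genome (GRCm38, GENCODE). *Malat1* (ENSMUSG00000092341) and *Neat1* (ENSMUSG00000092274) are neighbours on the minus strand of chromosome 19, from 5795690 to 5802672 and from 5824708 to 5845478. *Malat1* is a single exon of 6983 bases in its longest form, and *Neat1* has a form of 20771 bases in 1 exon and one of 3004 bases. *Snhg6* (ENSMUSG00000098234), on the minus strand of chromosome 1 from 9941959 to 9944118, holds the snoRNA *Snord87*, and its last bases overlap the end of *Mcmdc2* on the other strand. *Gm10076* (ENSMUSG00000060143) is a single exon of 384 bases on the plus strand of chromosome 14, from 105681828 to 105682211. All 4 are annotated as lincRNA.

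The annotated 3′ ends of these transcripts are shown because the chemistry primes on a stretch of A. Whether the RNAs in these cells end there was not tested. Each line is the last 40 bases of the named transcript, with the motif AATAAA, a known polyadenylation signal, in capitals.
Malat1-201 (chr19:5795690-5795729): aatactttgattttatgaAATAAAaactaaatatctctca
Neat1-202 (chr19:5842307-5842346): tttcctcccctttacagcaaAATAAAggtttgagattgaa
Neat1-201 (chr19:5824708-5824747): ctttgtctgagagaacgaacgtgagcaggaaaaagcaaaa
Snhg6-203 (chr1:9941959-9941998): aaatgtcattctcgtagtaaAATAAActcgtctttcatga
Gm10076-201 (chr14:105682172-105682211): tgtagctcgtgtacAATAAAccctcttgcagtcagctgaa
The motif, searched on the transcript strand, was in these windows for each transcript but the long form Neat1-201, and 25.8% of all 141704 annotated transcripts of at least 40 bases held it there. *Malat1* also has a run of 12 A that starts 6674 bases into Malat1-201 and lies 298 bases before its end, shown here with 20 bases on each side and the run in capitals.
Malat1 A run (chr19:5795968-5796019, minus strand): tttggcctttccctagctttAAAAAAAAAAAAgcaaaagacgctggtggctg
Such a run of 12 A was found in 4.07% of 141767 annotated transcripts. The longest run in *Neat1* was 7 bases, and it was 5 bases in *Snhg6* and 4 bases in *Gm10076*. Which stretch primed a given UMI cannot be read from the counts.

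*Malat1* was the most abundant of the 4. By UMIs it ranked 2nd among the 15225 genes with a UMI in CD and among the 14309 in HFD, behind *Retnla*, a secreted protein of alternatively activated macrophages, counting 3′ ends without regard to length. In cells with at most 10% mt- UMIs the CD library held 301235 *Malat1* UMIs, or 23733 CPM. The HFD library held 265487 UMIs, or 32401 CPM. The level was 1.37-fold higher in HFD (interval 1.36 to 1.37), a log2 ratio of 0.45 and short of 1.5-fold. It was past 1.5-fold under 3 alternatives, with log2 ratios of 0.77 as a mean over cells, 0.66 with cells thinned to 800 UMIs and 0.67 with the kinds of cell weighted equally.

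Single cells varied far more than the libraries did. *Malat1* took a median of 2.47% of a cell's UMIs in CD, from 0.579% at the 5th to 7.62% at the 95th percentile of cells. In HFD the median was 3.44%, and these percentiles were 0.599% and 15.6%. The low ends lay close together and the high ends apart. The median number of *Malat1* UMIs per cell was 113 in CD and 117 in HFD, although the median cell of the HFD library had fewer UMIs in all. Only 3 CD cells and 7 HFD cells with at most 10% mt- UMIs had no *Malat1* UMI.

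*Neat1* was at 912 CPM (11573 UMIs) in CD and 932 CPM (7636 UMIs) in HFD. The ratio of HFD over CD was 1.02 (0.993 to 1.05) over all these cells, and its interval held 1. Within classes of depth, given below, the ratio lay on both sides of 1. *Neat1* ranked 170 and 165 by UMIs. With every cell thinned to 800 UMIs, a *Neat1* UMI was present in 53.4% of the CD cells (51.4 to 55.4%). In the HFD library the share was 54.1% (51.9 to 56.4%), and 30 and 147 shallower cells were left out. Unthinned, the shares were 92.8% and 87.1%, in the order of the cells' depths.

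*Gm10076* stood apart from the others. It was at 61.9 CPM (786 UMIs) in CD and 726 CPM (5945 UMIs) in HFD, 11.7-fold higher (10.9 to 12.6). Its ratio was the 2nd highest of the 8755 genes compared, behind *Aldh1l1*, an enzyme of folate metabolism, with 17 and 158 UMIs. Thinned to 800 UMIs, the share of cells with a *Gm10076* UMI was 4.71% (3.89 to 5.64%) in CD. In HFD it was 34.7% (32.5 to 36.9%). Unthinned, 25.1% and 64.4% did.

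*Snhg6* was the least abundant, with 371 UMIs (29.2 CPM) in CD and 214 UMIs (26.1 CPM) in HFD. The ratio was 0.894 (0.752 to 1.06), and its interval held 1. Thinned to 800 UMIs, 1.91% and 1.76% of cells had a UMI, and 13.4% and 9.18% did unthinned. The sort held no cell type known to lack these RNAs, so the share that free RNA alone would give was not measured.

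A gene was compared where it had at least 100 UMIs over both sides and at least 10 expected on the smaller one, and 1.5-fold was taken as the limit. Of 8755 genes compared between the libraries in cells with at most 10% mt- UMIs, 3.75% were at least 1.5-fold higher in HFD and 6.93% at least 1.5-fold lower. Of the 4 long noncoding RNAs, 1 was past the limit upward (*Gm10076*) and 0 downward. The members were chosen with this contrast known, so nothing is read from this count. The median gene had a log2 ratio of -0.01.

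In cells with 10 to 20% mt- UMIs, *Malat1* was at 67252 CPM in CD and 101604 CPM in HFD, a ratio of 1.51 (1.496 to 1.53). Within classes of depth it was 1.31 under 1000 UMIs, 1.19 from 1000 to under 2000 and 1.10 from 2000 to under 4000, below 1.5-fold in each. *Neat1* was at 2226 and 2566 CPM, a ratio of 1.15 (1.09 to 1.22). *Gm10076* was at 35.6 CPM (47 UMIs) and 184 CPM (134 UMIs), a ratio of 5.17 (3.69 to 7.38). *Snhg6* had 13 and 8 UMIs there, too few to compare.

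The nuclear RNAs and the remaining pair went opposite ways with the mitochondrial share. From cells with at most 10% to cells with 10 to 20% mt- UMIs, *Malat1* was 2.83-fold higher in CD (2.81 to 2.85) and 3.14-fold higher in HFD (3.11 to 3.16). *Neat1* was 2.44-fold higher in CD (2.34 to 2.54) and 2.75-fold higher in HFD (2.62 to 2.90). *Gm10076* was at 0.575 of its level in CD (0.419 to 0.773) and at 0.254 in HFD (0.213 to 0.302). *Snhg6* was at 0.337 in CD (0.178 to 0.584) and at 0.421 in HFD (0.1796 to 0.846), from 13 and 8 UMIs in the cells with more mt- UMIs. So in each library 2 members were past 1.5-fold upward and 2 downward. Over all genes compared, 25.9% in CD and 28.0% in HFD were past 1.5-fold upward, and 19.7% and 23.3% downward, so shifts of this size were common. Only 94 of 7794 genes in CD and 97 of 6204 in HFD had a higher ratio than *Malat1*. The members were chosen with this dependence known, so nothing is read from the counts or the ranks.

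Over 20% mt- UMIs, *Malat1* was at 67001 CPM in CD and 80472 CPM in HFD, and *Neat1* at 2563 and 2952 CPM. On totals that include mt- UMIs, *Malat1* was thus no higher than in cells with 10 to 20%, while *Neat1* was at its highest among the mt- classes. The cells over 20% were also shallower, with medians of 742 UMIs in CD and 657 in HFD. In CD cells under 1000 UMIs, *Malat1* was at 90181 CPM with 10 to 20% and 70510 CPM over 20%. *Neat1* was at 2746 and 2656 CPM there. From 1000 to under 2000 UMIs *Malat1* was at 72816 and 62337 CPM, and *Neat1* at 2453 and 2343 CPM. From 2000 to under 4000 UMIs *Neat1* was at 1608 and 2586 CPM, the latter from 12 cells. The median mt- share in CD was 29.3% in all cells over 20% and 14.4% in those with 10 to 20%. Levels on totals without mt- UMIs were not compared for the cells over 20%. *Gm10076* was at 21.6 CPM (20 UMIs) and 116 CPM (27 UMIs), its lowest levels in both libraries.

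**Figure D1:**
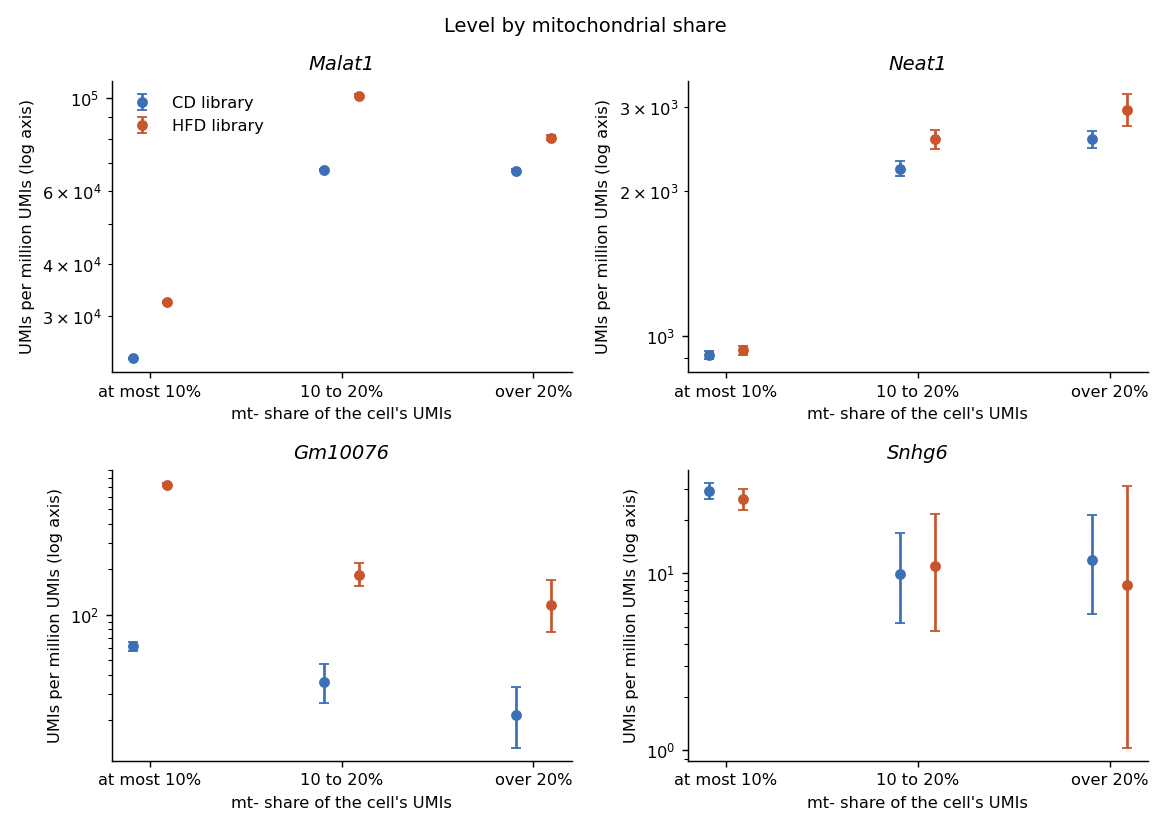
Level of *Malat1*, *Neat1*, *Gm10076* and *Snhg6* (CPM, log axis) in cells with at most 10%, 10 to 20% and over 20% mt- UMIs. Points are sums over the cells of 1 library and bars 95% Poisson intervals. *Malat1* and *Neat1* are higher above 10% mt- UMIs in both libraries, and *Gm10076* and *Snhg6* lower, with wide intervals for *Snhg6*.

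The mitochondrial share and depth moved together, since cells with more mt- UMIs had fewer UMIs in all. Within cells of 1000 to under 2000 UMIs, *Malat1* was 1.31-fold higher at 10 to 20% than at most 10% mt- UMIs in CD (55556 against 72816 CPM). In HFD it was 1.16-fold higher (75056 against 86971 CPM). *Neat1* was 1.40-fold and 1.37-fold higher in these cells. These ratios were smaller than those over all depths. In the other classes with at least 8 cells on each side, *Malat1* lay between 1.15 and 1.75 and *Neat1* between 1.24 and 1.75. The ratios past 1.5-fold were those of both genes in CD cells under 1000 UMIs (1.75 each) and of *Neat1* in HFD cells of 2000 to under 4000 UMIs (1.67, from 30 cells with 10 to 20% mt- UMIs). *Gm10076* in HFD was at 0.613, 0.591 and 0.438 of its level in the 3 classes under 4000 UMIs. In CD it was at 0.770 (0.408 to 1.35) from 2000 to under 4000 UMIs, where the interval held 1. The other CD classes had too few *Gm10076* UMIs to be compared. In cells of 1000 to under 4000 UMIs as 1 class, the number of members past 1.5-fold went from 4 to 2 in each library, and *Snhg6* had too few UMIs to be compared. In CD *Malat1* (log2 ratio 0.69) and *Neat1* (0.70) were past it and *Gm10076* was at -0.55. In HFD *Neat1* (0.72) and *Gm10076* (-1.17) were past it and *Malat1* was at 0.54. The share of all genes past 1.5-fold was not taken for this class as a whole. From 1000 to under 2000 UMIs, 49 of 1439 genes in CD were past it upward and 96 downward. In HFD 49 of 1292 were upward and 155 downward there. From 2000 to under 4000 UMIs, 189 of 3196 genes in CD were upward and 366 downward, and in HFD 104 and 361 of 984.

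The adipocyte list (*Adipoq*, *Plin1*, *Cfd*, all 3 with UMIs) was at 138 and 146 CPM in the cells with 10 to 20% mt- UMIs, and the macrophage list at 12460 and 10804 CPM. The hemoglobin genes were at 111 and 53.7 CPM there. The part of these cells in the levels of the long noncoding RNAs was not tested.

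Along depth itself, with at most 10% mt- UMIs, the level of *Malat1* was lower in each deeper class from 1000 UMIs on. In CD it was 51645 CPM under 1000 UMIs, 55556 from 1000 to under 2000, 36659.5 at 2000 to under 4000, 23119 at 4000 to under 8000 and 15783.5 at 8000 or more. In HFD it was 102711, 75056, 42195, 24736 and 20041 CPM in the same classes. The HFD library was above the CD library in each class, by 1.99-fold under 1000 UMIs, 1.35-fold from 1000 to under 2000, 1.15-fold at 2000 to under 4000, 1.07-fold at 4000 to under 8000 and 1.27-fold at 8000 or more. The class under 1000 UMIs held 52 CD cells and 267 HFD cells.

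In numbers of molecules the order was the reverse. The mean count of *Malat1* per CD cell was 38.6, 86.6, 110, 130 and 180 UMIs from the shallowest to the deepest class. Per HFD cell it was 78.8, 110, 121, 145 and 209 UMIs. Each deeper class had more *Malat1* UMIs per cell, and, except between the 2 shallowest CD classes, a smaller share of its UMIs from *Malat1*. Between the classes of 1000 to under 2000 and of 8000 or more UMIs in CD, the median total went from 1597 to 10797.5 UMIs.

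*Neat1* had the same shape at a lower level. In CD it was at 1569, 1754, 1250.2, 936 and 661 CPM, and in HFD at 2035, 1693, 1153, 789 and 707 CPM. Its ratio of HFD over CD was below 1 in the 3 middle classes (0.965, 0.922 and 0.843) and above 1 in the outer ones (1.30 and 1.07). The intervals of 0.922 (0.866 to 0.982), 0.843 (0.802 to 0.886) and 1.07 (1.01 to 1.13) left out 1, and the others held it. The mean number per cell went from 1.17 to 7.52 UMIs in CD and from 1.56 to 7.36 UMIs in HFD.

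**Figure D2:**
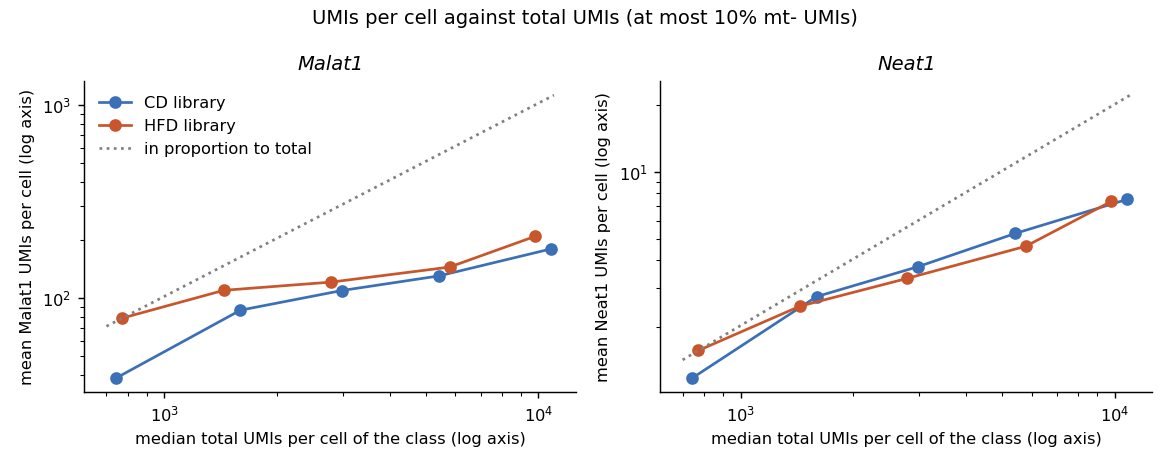
Mean *Malat1* and *Neat1* UMIs per cell against the median total UMIs per cell, both on log axes, for the 5 depth classes of each library in cells with at most 10% mt- UMIs. The dotted line is drawn through the shallowest HFD class in proportion to total UMIs. *Malat1* goes from 38.6 to 180 UMIs in CD and from 78.8 to 209 in HFD, and all deeper HFD classes lie below the line.

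*Gm10076* had the opposite slope. In HFD it was at 263, 349, 563, 790.1 and 861 CPM from the shallowest to the deepest class. In CD it had 0 UMIs in the 52 cells under 1000 UMIs, where 3 UMIs would be 77.2 CPM, and was at 43.8, 49.9, 57.3 and 74.3 CPM in the others. Its ratio of HFD over CD was 3.41-fold in the shallowest class, taking 3 UMIs over the CD cells as the floor. That value leaves out counting error and is not a lower limit. The intervals there reached up to 94.9 CPM in CD and down to 198 CPM in HFD. The ratio was 7.98-fold, 11.3-fold, 13.8-fold and 11.6-fold in the deeper classes, so no class lacked the difference.

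*Snhg6* was lower from 1000 to under 2000 UMIs than in each deeper class of both libraries, at 7.73 CPM (3 UMIs) in CD and 16.2 CPM (12 UMIs) in HFD. From there to 8000 or more UMIs it was 4.59-fold higher in CD (1.55 to 22.5), and 1.51-fold higher in HFD (0.814 to 3.05), with too few UMIs there to be compared. In CD it was at 23.6, 27.4 and 35.5 CPM in the 3 deepest classes, and in HFD at 30.1, 30.5 and 24.4 CPM. Among these 3 classes the order differed between the libraries. Under 1000 UMIs it had 1 UMI in CD and 0 in HFD.

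Between cells of at least 8000 UMIs and those under 1000 UMIs, 2 members could be compared in CD and both, *Malat1* (0.306 of its level, 0.292 to 0.320) and *Neat1* (0.421, 0.327 to 0.552), were past 1.5-fold downward. In HFD 3 could be compared. *Malat1* (0.195, 0.192 to 0.198) and *Neat1* (0.347, 0.313 to 0.387) were past it downward and *Gm10076* (3.27-fold, 2.496 to 4.36) upward. Of the 505 genes compared in CD, 46.5% were past 1.5-fold upward and 16.2% downward. Of the 2287 in HFD, 36.6% were upward and 24.1% downward. *Malat1* had the 7th lowest ratio of the 505 and the 40th lowest of the 2287. The dependence on depth was also known when the members were chosen, so nothing is read from these ranks.

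In the cells under 1000 UMIs, some marker lists were alike between the libraries and some were not. Macrophage genes were at 10648 CPM in CD and 10665 CPM in HFD, and stromal genes at 77.2 and 68.3 CPM. Neutrophil genes (*S100a8*, *S100a9*, *Retnlg*) were at 2109 CPM (82 UMIs) in the 52 CD cells and at 0 in the 267 HFD cells. Adipocyte genes were at 463 CPM (18 UMIs) and 97.6 CPM (20 UMIs). The number of cells that held these UMIs was not counted. In cells of 8000 or more UMIs, hemoglobin genes were at 1119 CPM in CD and 6.93 CPM in HFD. Their part in the ratios was not tested.

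**Figure D3:**
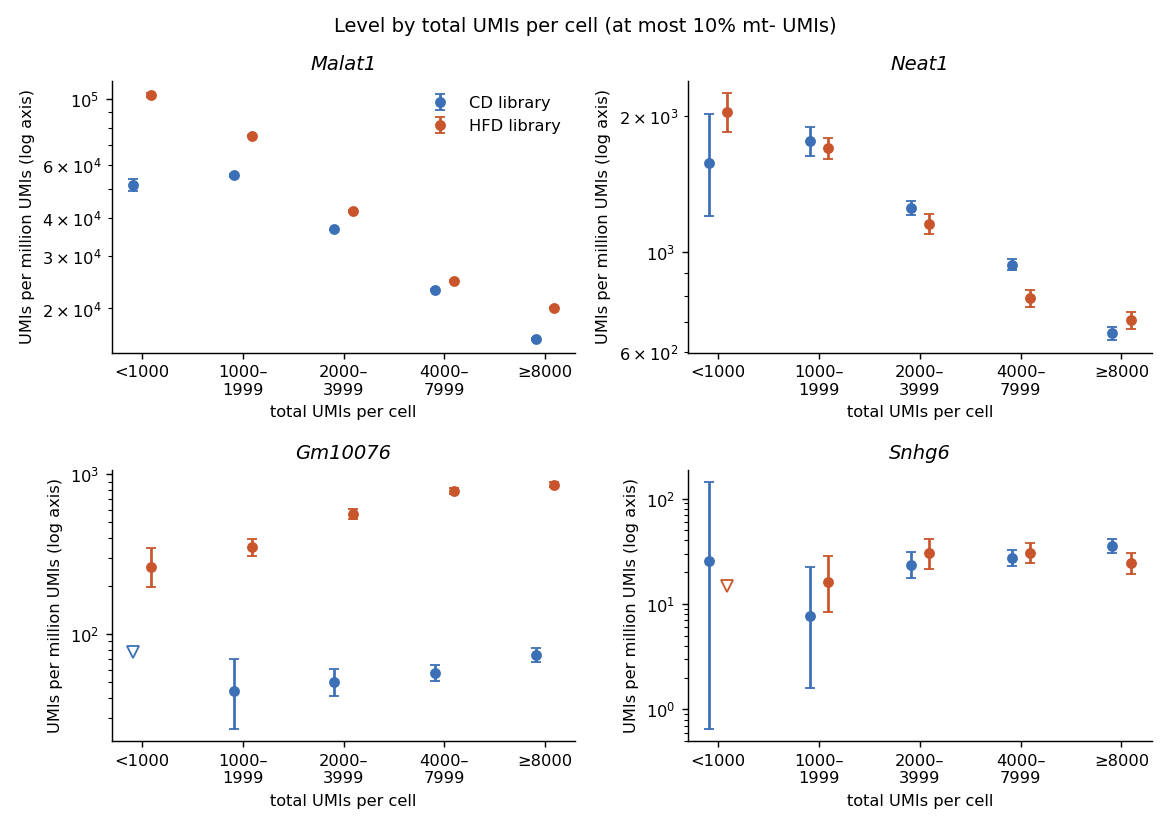
Level of the 4 RNAs (CPM, log axis) by total UMIs per cell, in cells with at most 10% mt- UMIs. Points are sums over the cells of 1 library, bars 95% Poisson intervals, and open triangles mark the level of 3 UMIs where none were seen. *Malat1* and *Neat1* are lower in deeper cells, *Gm10076* in HFD goes from 263 to 861 CPM, and *Snhg6* is lowest from 1000 to under 2000 UMIs in CD, with wide intervals in shallow cells.

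Cells were also split by genes that mark kinds of ATM. *Lyve1*, a hyaluronan receptor, marks resident ATMs. *Ccr2* is a chemokine receptor of cells that derive from monocytes, and *Lyz1* encodes a lysozyme. Lyve1+ cells (at least 1 UMI) numbered 1180 in CD and 415 in HFD, Ccr2+ cells 1349 and 1136, and cells with at least 10 *Lyz1* UMIs 576 and 677, all with at most 10% mt- UMIs. The kinds overlap, with 505 CD and 154 HFD cells both Lyve1+ and Ccr2+, and 130 and 54 cells both Lyve1+ and at least 10 *Lyz1* UMIs. They are limits on counts and not cell types, and 99 CD and 116 HFD cells had 5 to 9 *Lyz1* UMIs, beside 60 and 64 cells with 10 to 14. The kinds also differed in depth, with medians of 4071 and 2299 UMIs in Lyve1+ cells and 8532.5 and 6616 UMIs in cells with at least 10 *Lyz1* UMIs.

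The HFD over CD ratio of *Malat1* was 1.496 (1.48 to 1.51) in Lyve1+ cells, from 28653 to 42873 CPM. It was 1.35 (1.34 to 1.36) in Ccr2+ cells, from 20019.9 to 26948 CPM, and 1.35 (1.34 to 1.36) in cells with at least 10 *Lyz1* UMIs, from 17274 to 23319 CPM. The direction was the same in each kind. *Neat1* had ratios of 1.05 (0.996 to 1.12), 1.03 (0.992 to 1.07) and 1.11 (1.06 to 1.16) in the same order. *Gm10076* had ratios of 10.6 (9.24 to 12.1), 11.8 (10.9 to 12.9) and 12.01 (10.8 to 13.4), whose intervals overlap. *Snhg6* was the exception, at 1.47 (1.02 to 2.08) in Lyve1+ cells, 0.771 (0.631 to 0.939) in Ccr2+ cells and 0.809 (0.635 to 1.03) in the *Lyz1* cells. These ratios were not matched for depth, and the HFD cells of each kind were shallower. In Lyve1+ cells with under 10 *Lyz1* UMIs, *Malat1* in CD was at 59017, 38842, 26470 and 19316 CPM in the classes from 1000 UMIs up. In HFD it was at 75678, 51600.5, 29672 and 20809 CPM there. Under 1000 UMIs it was at 59614 CPM in 10 CD cells and 119595 CPM in 33 HFD cells.

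In cells with 10 to 20% mt- UMIs, the ratio of *Malat1* was 1.36 in the 317 CD and 102 HFD Lyve1+ cells and 1.38 in the 201 and 151 Ccr2+ cells. *Neat1* had ratios of 1.15 and 1.02 there. *Gm10076* had 24 and 21 UMIs in the Lyve1+ cells and 14 and 38 in the Ccr2+ cells, at ratios of 4.23 and 5.06. Only 19 CD and 15 HFD cells had at least 10 *Lyz1* UMIs, and their values are not read.

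To set the kinds against each other, cells of both kinds were left out, leaving 446 CD and 623 HFD cells with at least 10 *Lyz1* UMIs and 1050 and 361 Lyve1+ cells. *Malat1* was lower in the *Lyz1* cells, at 16311 against 30938.5 CPM in CD (0.527, 0.522 to 0.532) and 23070.3 against 51474 CPM in HFD (0.448, 0.443 to 0.453). *Neat1* was lower too, at 645 against 1146 CPM in CD (0.563, 0.537 to 0.591) and 729 against 1266 CPM in HFD (0.575, 0.538 to 0.616). *Gm10076* was higher in the *Lyz1* cells, at 76.8 against 52.1 CPM in CD (1.48, 1.24 to 1.76) and 888 against 459 CPM in HFD (1.93, 1.75 to 2.14). *Snhg6* was higher in CD, with 34.5 against 21.8 CPM (1.58, 1.20 to 2.08), and lower in HFD, with 25.8 against 34.8 CPM (0.741, 0.496 to 1.14).

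Of the 4 members, 1 was past 1.5-fold upward (*Snhg6* in CD, *Gm10076* in HFD) and 2 downward in each library. *Gm10076* in CD, at 1.48, was just short of it. Of all genes compared, 11.6% in CD and 14.0% in HFD were past 1.5-fold upward in the *Lyz1* cells, and 25.3% and 23.1% downward.

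The ratios differed with depth. From 1000 to under 2000 UMIs, *Malat1* in the *Lyz1* cells was at 0.460 of its level in Lyve1+ cells in CD, from only 6 *Lyz1* cells, and at 0.586 in HFD. From 2000 to under 4000 UMIs it was at 0.623 and 0.686. In cells of 4000 to under 8000 UMIs, *Malat1* in the *Lyz1* cells was at 0.752 of its level in Lyve1+ cells in CD and 0.825 in HFD. In cells of 8000 or more UMIs it was at 0.752 in CD and 0.956 (0.906 to 1.01) in HFD, the latter against only 7 Lyve1+ cells. *Neat1* was at 0.697 and 0.772 in cells of 4000 to under 8000 UMIs. In cells of 8000 or more UMIs it was at 0.659 in CD and 1.08 (0.795 to 1.49) in HFD. *Gm10076* was 2.28-fold higher in the *Lyz1* cells of HFD with 2000 to under 4000 UMIs and 1.45-fold higher in those with 4000 to under 8000 UMIs. With 8000 or more UMIs its ratio in HFD was 1.19 (0.896 to 1.61). In CD it was 1.29 (0.952 to 1.74) and 1.34 (0.893 to 2.10) in the 2 deepest classes, and both intervals held 1. The shallower CD classes had too few *Gm10076* UMIs to be compared.

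**Figure D4:**
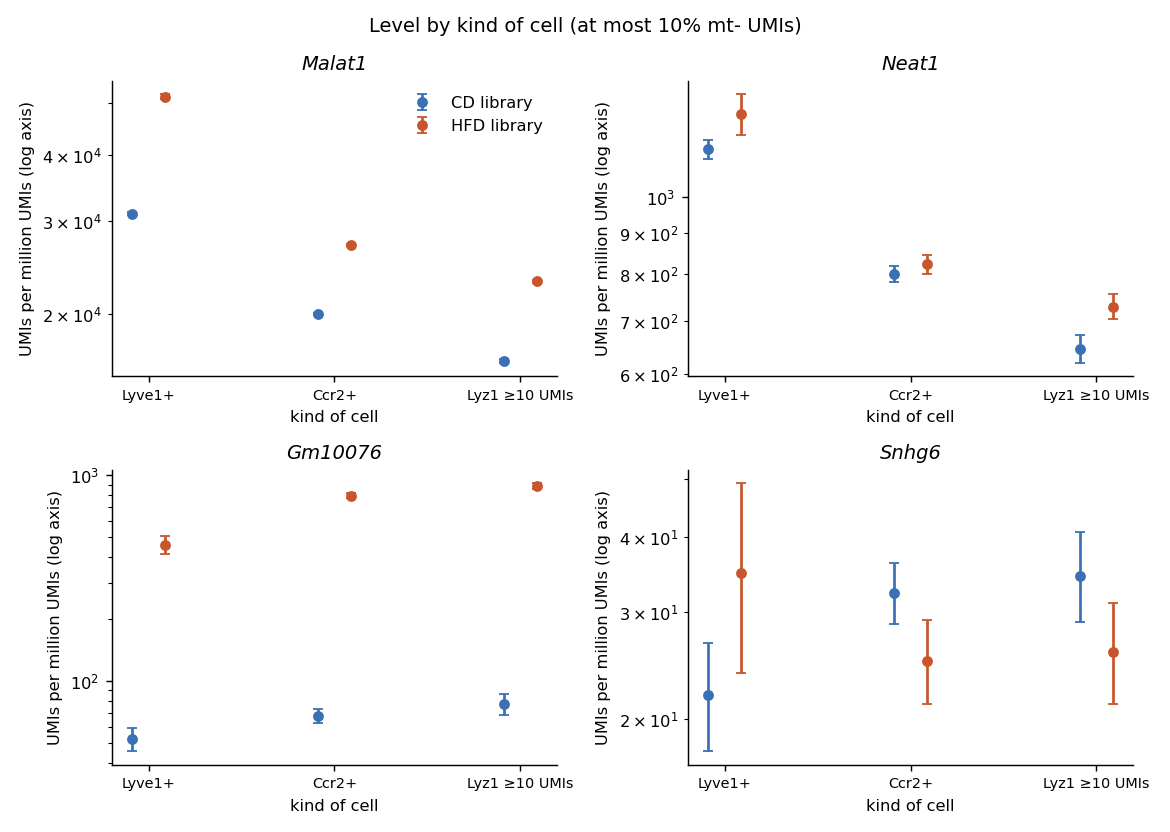
Level of the 4 RNAs (CPM, log axis) in Lyve1+ cells with under 10 *Lyz1* UMIs, in Ccr2+ cells, and in cells with at least 10 *Lyz1* UMIs and no *Lyve1* UMI, with at most 10% mt- UMIs. Points are sums over the cells of 1 library and bars 95% Poisson intervals. *Malat1* is highest in Lyve1+ cells, *Gm10076* is higher in HFD in each kind, and *Snhg6* is higher in the *Lyz1* cells of CD and lower in those of HFD.

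*Gm10076* needs a caution on what its row counts. Its exon is a near copy of the mRNA of *Rpl41* (ENSMUSG00000093674), a small ribosomal protein gene on the minus strand of chromosome 10, from 128548114 to 128549305. Aligned to the transcript Rpl41-201, 381 bases of *Gm10076* were identical, with 2 mismatches and 0 gap bases. The whole coding stretch of *Rpl41*, 78 bases with the stop codon, is in *Gm10076* letter for letter, from base 42 of its exon, and is shown with its ATG in capitals.
Gm10076 and Rpl41 coding stretch (chr14:105681869-105681946): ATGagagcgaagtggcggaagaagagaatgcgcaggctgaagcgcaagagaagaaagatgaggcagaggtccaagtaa
The mismatches, with *Rpl41* as the reference and positions counted from 1 at the 5′ end of *Gm10076*, were C127T and G234A, which lie 257 and 150 bases before its 3′ end. They are shown with 13 bases on each side and the base that differs in capitals.
Gm10076 at 127 (chr14:105681941-105681967): aagtaagccagccTgtgcacctacgac
Rpl41 at the same place: aagtaagccagccCgtgcacctacgac
Gm10076 at 234 (chr14:105682048-105682074): gtagacctggaacAtcacctcgccgcg
Rpl41 at the same place: gtagacctggaacGtcacctcgccgcg
Within the exon, a read can be told from *Rpl41* by sequence only where it covers one of these bases or the first base. Rpl41-201 has 28 bases after its AATAAA and Gm10076-201 has 20, so a read past the *Gm10076* end can also be told apart. Of the windows of 50 bases in *Gm10076*, 69.9% were also found in *Rpl41* transcripts, as were 51.3% of windows of 75 bases and 38.6% of windows of 90 bases. Some of these windows of 50 and 75 bases were in transcripts of *Gm10180*, *Gm10736* and *Gm3699* too. The length of the reads is not given in the sources used here. The counts of *Gm10076* and *Rpl41* are therefore uncertain where reads match more than 1 gene. The row of *Gm10076* may not measure a long noncoding RNA alone.

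*Rpl41* itself was at 5577 CPM (70784 UMIs) in CD and 5943 CPM (48696 UMIs) in HFD, a ratio of 1.07 (1.05 to 1.08). Of the UMIs of both genes, *Gm10076* held 1.10% in CD (1.02 to 1.18%) and 10.9% in HFD (10.6 to 11.1%). The share lay close together over depth. In CD it was 1.28%, 1.16%, 1.06% and 1.11% from 1000 to under 2000 UMIs up to 8000 or more, and in HFD 10.5%, 11.1%, 10.9% and 10.9%. By kind of cell it was 1.13%, 1.08% and 1.03% in Lyve1+, Ccr2+ and *Lyz1* cells of CD and 10.9%, 10.9% and 11.2% in those of HFD. With 10 to 20% mt- UMIs it was 1.43% (1.05 to 1.89%) in CD and 8.94% (7.54 to 10.5%) in HFD, and with over 20% it was 1.38% and 7.11% (4.73 to 10.2%).

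*Rpl41* had the same direction as *Gm10076* with depth and with the mt- share within each library. Over 15 groups of cells set by library, mt- share and depth, their profiles had an r of 0.22. From cells under 1000 to cells of at least 8000 UMIs, *Rpl41* was 2.24-fold higher in CD and 2.76-fold higher in HFD. From at most 10% to 10 to 20% mt- UMIs it was at 0.441 of its level in CD and 0.316 in HFD, beside 0.575 and 0.254 for *Gm10076*. In the *Lyz1* cells it was 1.71-fold and 1.88-fold higher than in Lyve1+ cells.

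**Figure D5:**
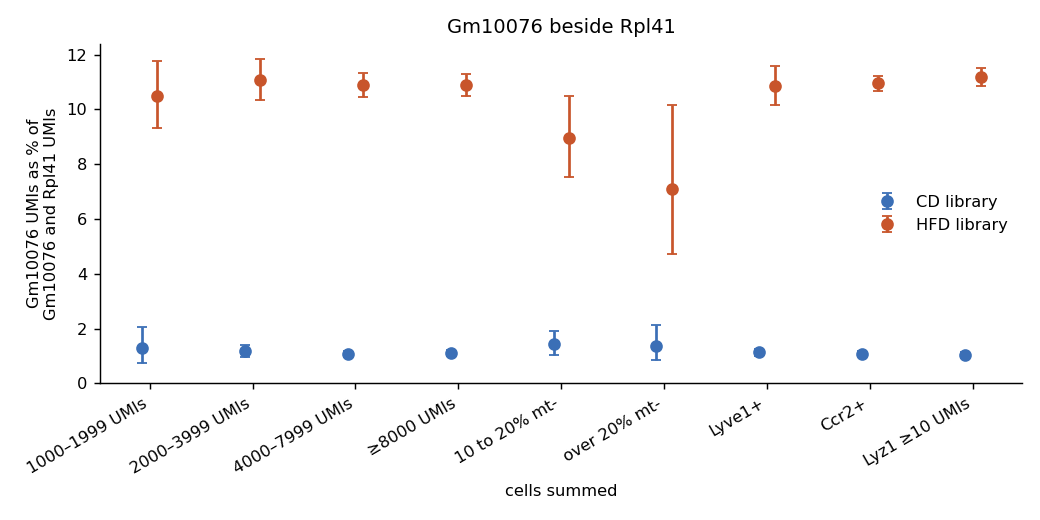
*Gm10076* UMIs as a percentage of the UMIs of *Gm10076* and *Rpl41* together, by depth, mt- share and kind of cell. Points are sums over the cells of 1 library and bars 95% Clopper-Pearson intervals. The CD library stays between 1.03% and 1.43% and the HFD library between 7.11% and 11.2% in all 9 sets of cells drawn.

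Proteins and pathways known to work beside these RNAs lay close to 0 on the log2 scale between the libraries. Proteins of the paraspeckle, which *Neat1* scaffolds, had a median log2 ratio of HFD over CD of 0.05 over 14 genes, with 0 past 1.5-fold upward and 1 downward. That one was *Cirbp*, a cold-inducible RNA-binding protein, at 102 CPM in CD and 49.4 CPM in HFD. *Sfpq*, a core protein, had a log2 ratio of 0.28 and *Tardbp* one of 0.18. Nuclear speckle and SR proteins, which sit where *Malat1* does, had a median of 0.10, with 0 of 22 past 1.5-fold either way. *Srsf6* (0.37) and *Prpf38b* (0.33), both splicing factors, had the highest log2 ratios, and *Clk1*, a kinase of SR proteins, the lowest (-0.25) before the helicase gene *Ddx39b* (-0.14).

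The speckle and SR genes were more often higher than lower with more mt- UMIs. From at most 10% to 10 to 20% mt- UMIs, 11 of 22 speckle and SR genes in CD and 14 of 22 in HFD were past 1.5-fold upward and 0 downward, with median log2 ratios of 0.56 and 0.83. The medians over all genes compared were 0.12 and 0.11, and 25.9% and 28.0% of them were past it upward. *Clk1* had log2 ratios of 1.24 and 1.40. Of the paraspeckle genes, 5 of 14 in CD and 5 of 13 in HFD were past it upward, and 2 and 1 downward, with medians of 0.27 and 0.37. Over all genes the shares were 25.9% and 28.0% upward and 19.7% and 23.3% downward, so the counts of the paraspeckle genes lay near them. The mt- classes also differed in depth, and no list was compared between them within classes of depth. From cells under 1000 to cells of at least 8000 UMIs in HFD, 17 of 21 speckle and SR genes were past 1.5-fold downward and 0 upward. Of all genes 24.1% were past it downward there. In CD only 2 of the speckle and SR genes could be compared, with 1 downward.

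Cytosolic ribosomal protein genes, with *Rpl41* among them, were lower with more mt- UMIs. Their median log2 ratio was -1.34 in CD and -1.55 in HFD, with 78 and 82 of 83 past 1.5-fold downward and 0 upward. Of all genes 19.7% and 23.3% were past it downward with the mt- share. From shallow to deep cells, 71 of 82 in CD and 79 of 82 in HFD were past it upward and 0 downward. Of all genes 46.5% and 36.6% were past it upward there. Between the libraries their median was 0.03, and *Rpl35* had a log2 ratio of 0.32. *Rpl7l1* and *Rplp1* were lowest, at -0.32 and -0.31. Other genes whose mRNAs start with a 5′ TOP motif, as snoRNA host genes do, had a median of 0.15 between the libraries over 13 genes, with 0 past the limit. *Pabpc1* (0.31) and *Npm1* (0.27) were highest, and *Nap1l1* (-0.01) and *Hnrnpa1* (-0.23) lowest. With the mt- share 8 of the 13 in CD and 9 in HFD were past it downward and 0 upward, beside 19.7% and 23.3% of all genes downward.

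The mt- genes had a median of -0.31 between the libraries, with 2 of 13 past 1.5-fold downward, *mt-Nd1* (-0.65) and *mt-Nd3* (-0.62). *mt-Nd4l* and *mt-Nd5* were nearest to 0, at -0.03 and -0.06. These genes set the mt- share, so their higher level with it is by construction. They were also 0 upward and 9 of 9 and 12 of 12 downward between shallow and deep cells, the direction of *Malat1*. Of all genes 16.2% in CD and 24.1% in HFD were past 1.5-fold downward there.

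Of 17 snoRNA host genes listed beside *Snhg6*, 6 were measured and 4 could be compared between the libraries, with a median of 0.08. *Snhg20*, with 62 and 68 UMIs, was past 1.5-fold upward at 0.76 (0.25 to 1.29), and *Epb41l4aos* was at 0.17, *Snhg9* at -0.02 and *Snhg12* at -0.30. *Snhg9* was higher in cells with 10 to 20% mt- UMIs, by 1.14 in CD and 1.12 in HFD on the log2 scale, where *Snhg6* was lower. *Epb41l4aos* was at -0.61 and -0.37 there, and *Snhg12* at -0.15 and 0.65. Genes of nonsense-mediated decay, the pathway that is known to degrade spliced snoRNA host RNAs, had a median of 0.04 over 10 genes with 0 past the limit. *Upf3b* was highest at 0.41 and *Smg8* lowest at -0.16, with *Smg9* at 0.14 and *Upf3a* at -0.09. With the mt- share 4 of 9 in CD and 3 of 8 in HFD were past 1.5-fold upward and 1 and 0 downward, beside 25.9% and 28.0% of all genes upward and 19.7% and 23.3% downward.

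Of 24 other long noncoding RNAs listed, 18 were measured and 10 compared between the libraries, with a median of -0.09. *Pvt1*, a neighbour of *Myc*, was past 1.5-fold upward (0.65, 82 and 83 UMIs) and *AY036118* downward (-0.65, 3761 and 1544 UMIs). *Kcnq1ot1*, an imprinted antisense RNA, was at 0.46 (0.21 to 0.72), and *Gm42418* at -0.42. With the mt- share 7 of 8 in CD and 5 of 7 in HFD were past it upward and 0 downward, with medians of 1.13 and 1.21. Of all genes 25.9% and 28.0% were past it upward there. *Kcnq1ot1* was at 1.40 in both libraries. Among all 8275 rows that GENCODE types as lincRNA or antisense, other than the members, 133 could be compared between the libraries, of which 16 were past 1.5-fold upward and 17 downward, beside 3.75% and 6.93% of all genes. From at most 10% to 10 to 20% mt- UMIs, 45 of 89 in CD and 26 of 50 in HFD were past it upward, and 18 and 11 downward, with medians of 0.63 and 0.65, beside the same shares of all genes as above.

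Profiles were compared over 15 groups of cells, set by library, mt- share (at most 10%, 10 to 20%) and depth, as log2(CPM + 10), among 4764 genes with at least 500 UMIs. The 16th group, HFD cells of at least 4000 UMIs with 10 to 20% mt- UMIs, held 0 cells, and the like CD group 9. The groups share libraries, so r is a description across groups. The profile most like that of *Malat1* was that of *Gm26532* (r = 0.98), followed by *Nfkbiz*, a nuclear inhibitor of NF-kB (0.98), and *Pnisr*, which encodes a speckle protein (0.96). *Neat1* was most like *Gm26740* (0.965), *Tra2a*, a splicing factor (0.965), and *Slc38a2*, an amino acid transporter (0.96). *Gm10076* was most like *Mmp19*, a matrix metalloproteinase (0.90), *Cd14*, the coreceptor for lipopolysaccharide (0.87), and *Lgals3*, which encodes galectin-3 (0.87). *Snhg6* was most like *C1d* (0.90), *Fuca1*, a lysosomal fucosidase (0.86), and *Mthfs* (0.85). Its profile rests on few counts. *Snhg6* had at most 9 UMIs in each group with 10 to 20% mt- UMIs. It had at most 12 in each group under 2000 UMIs with at most 10%. These values of r are the highest of 4764, and what counting error alone would give was not measured.

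Among the members, *Malat1* and *Neat1* had an r of 0.94 over these groups, and the other pairs lay between -0.46 and 0.06. *Rpl41* had an r of -0.97 with *Neat1* and -0.88 with *Malat1*, on levels that share a total. Across single cells of 2000 to under 4000 UMIs with at most 20% mt- UMIs, the shares of *Malat1* and *Neat1* had a Spearman's rho of 0.36 in the 883 CD cells and 0.36 in the 504 HFD cells. *Malat1* had a rho of 0.25 and 0.27 with the mt- share in these cells, and *Neat1* one of 0.17 and 0.25. In the HFD cells of 4000 to under 8000 UMIs both were near 0, at -0.02 and 0.04.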

How the data were processed

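Per the labels and the study's methods, sorted ATMs of 3 pooled mice per diet gave 1 library each, run with the 10x Genomics 3′ kit (version 2 chemistry) and reads were aligned to mm10 by Cell Ranger 3.0.2. The deposited values are raw UMI counts for each gene in each barcode. The files held 15003119 UMIs (CD) and 9164686 UMIs (HFD).

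Here UMIs were summed over cells with at least 200 genes and divided by all UMIs of those cells (CPM). The 95% intervals are exact Poisson for a level, exact conditional binomial for a ratio and Clopper-Pearson for a share, and cover counting error only. UMIs correct for PCR copies of a molecule. Doublets were kept, and free RNA was not removed. No test between diets was made, since cells are not replicates. The ratio intervals were run on simulated Poisson counts with known ratios. That simulation held no variation between cells, mice or libraries, so it cannot show how the intervals do under it. The genes and lists were chosen with earlier results of these data known. Genes named were the members, the 3 most alike profiles of each, *Rpl41*, and, from each list, the 2 genes with the highest and the 2 with the lowest HFD over CD ratio. Some genes under this rule are not reported here. *Aldh1l1* and *Retnla* were named after their values were seen. Sequences and positions are from GENCODE M21 on GRCm38, where 30934 of 31053 gene IDs were found. Python 3.11.15, numpy 2.4.6, scipy 1.17.1, pandas 2.3.3 and Biopython 1.88 were used. Alternatives changed the scale, filters on genes, UMIs and mt- share, depth, averaging and weighting of kinds of cell, and 1, the removal of shared barcodes, was chosen after seeing the data.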

Additional observations from a re-analysis of the deposited data

Results flagged for a closer look

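*Snhg6* had opposite signs in the 2 libraries when cells with at least 10 *Lyz1* UMIs were set against Lyve1+ cells. Its log2 ratio was 0.66 (0.27 to 1.05) in CD, from 136 and 94 UMIs, and -0.43 (-1.01 to 0.18) in HFD, from 109 and 32 UMIs. In CD the *Lyz1* cells were also deeper, with medians of 8379.5 and 3800 UMIs. Within depth, the CD log2 ratio was 1.55 (-0.02 to 2.87) from 2000 to under 4000 UMIs and 0.39 (-0.28 to 1.04) from 4000 to under 8000. At 8000 or more UMIs it was 0.15 (-0.66 to 1.08), and each of these intervals held 0. In cells of 2000 to under 8000 UMIs as 1 class it was 0.59. With 1 library per diet the difference was not tested, and the HFD interval over all depths holds 0.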

How the results depend on the processing

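No paired analysis was possible because each diet had 1 library. The log2 ratios of HFD over CD were 0.45 for *Malat1*, 0.03 for *Neat1*, 3.55 for *Gm10076* and -0.16 for *Snhg6*. The narrow counting interval of *Malat1* was left under 7 alternatives, all above 0: 0.44 on totals without mt- UMIs, 0.46 with the median gene set to 0, 0.39 with at least 500 genes per cell, 0.77 as a mean over cells, 0.66 with cells thinned to 800 UMIs, 0.46 without the 5% of cells with the most UMIs, and 0.67 with 3 kinds of cell weighted equally. *Neat1* went to 0.21, 0.15 and 0.18 and *Gm10076* to 3.35, 3.31 and 3.31 as a mean over cells, thinned, and weighted equally, and *Gm10076* to 3.32 in cells of 1000 to under 4000 UMIs. *Snhg6* went to 0.25 in those cells, with its sign turned. In them the members past 1.5-fold between the mt- classes went from 4 to 2 in CD and from 4 to 2 in HFD. The cause of these shifts was not tested. *Snhg6* could not be compared there. Counts over all genes by depth class are given above, with the mitochondrial share. The other 57 values stayed within the counting interval of a ratio or within 1.5 times a count, among them the 4 ratios of HFD over CD without the 14 shared barcodes. Some of those counts still differed by 1. In the *Lyz1* against Lyve1+ contrast, the count of 3 in CD was 4 with the median gene set to 0 and as a mean over cells (*Gm10076* at 0.73 and 0.62) and 2 in cells of 2000 to under 8000 UMIs (*Neat1* at -0.58). In HFD the count of 3 was 4 with at least 2 *Lyve1* and 20 *Lyz1* UMIs (*Snhg6* at -0.72). The count of 4 in the mt- contrast of HFD was 3 with at least 500 genes, where *Snhg6* could not be compared.

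Precision was limited by the UMIs of a gene. In cells with at most 10% mt- UMIs 3 UMIs were 0.236 CPM in CD and 0.366 CPM in HFD, and *Snhg6*, with 371 and 214 UMIs, could not show differences smaller than its interval.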

Other observations

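Rows typed as pseudogenes, the class a near copy such as *Gm10076* often falls in, were few among the measured genes. Of 240 such rows, 6 could be compared between the libraries in cells with at most 10% mt- UMIs, and 2 were past 1.5-fold upward and 0 downward, beside 3.75% and 6.93% of all genes, with a median log2 ratio of 0.33. One of these, *Gm6563*, had 27 UMIs in CD and 107 in HFD, a log2 ratio of 2.62, and was named after its value was seen. It stood 7th from the top among all genes compared, where *Gm10076* was 2nd.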
